A study of Arabidopsis thaliana with 4 samples.

Results

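RCK, ZYP1a and ZYP1b are 3 genes of meiotic crossing over and chromosome synapsis, and their transcripts were compared in inflorescences of Arabidopsis thaliana, between the mutant apetala3 and the wild type. They were found through the platform's probe annotation, in which 1 probe named RCK alone and 2 probes, A004228_01 and A004231_01, listed ZYP1a and ZYP1b and no other gene. These are 3 of 26474 gene probes on the array, and all 3 were measured on all 4 arrays. The 2 ZYP1 probes do not separate ZYP1a from ZYP1b, so their values stand for the pair.

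Each array, called a set in the labels, carried total RNA of both genotypes, with the apetala3 RNA in channel 1 on sets 1 and 3 and in channel 2 on sets 2 and 4. The labels name the mutant only as apetala3, give no allele, accession, age or treatment, and do not say whether the sets came from separate plants or extracts. P-values therefore measure only the spread between sets, which may be technical, and the number of arrays limits the precision. Every value below is a log2 ratio of apetala3 over wild type, so it holds no level of expression in either genotype, and whether the tissue carried its defining transcripts could not be checked. AP3 was not checked either, since 0 probes named it or its partner PI alone.

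In meiosis, programmed breaks in the chromosomes are repaired on the homologous chromosome, and some of the repair events become crossovers. RCK, also called MER3 or ROCK-N-ROLLERS, is a DNA helicase that acts on recombination intermediates and is needed for most crossovers in Arabidopsis. ZYP1a and ZYP1b encode the transverse filament of the synaptonemal complex, the protein ladder that joins the paired chromosomes along their length. In inflorescences these processes take place in the pollen mother cells of the anthers and in the megaspore mother cells of the ovules. APETALA3 is a MADS-box factor that specifies petals and stamens, and its mutants are known to make sepals where petals would form and carpels where stamens would form.

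RCK (AT3G27730) lies on chromosome 3 at 10273098 to 10280646 of assembly TAIR10.1. ZYP1a (AT1G22260) lies on chromosome 1 at 7859630 to 7865263, and ZYP1b (AT1G22275) at 7867067 to 7872715. The ZYP1 genes are thus 1803 bases apart, and the annotation places AT1G22270 between them.

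The direction of the ratios is assumed rather than settled, because the labels do not name the numerator. Sets 1 and 3 were multiplied by -1. In this orientation 5 of 6 measured genes of the tapetum and sporogenesis list were lower, with a median of -2.93. That list set the direction, so it is no evidence of it. All statements of higher and lower would exchange if the sign were turned. The sets correlated across gene probes with a Pearson r of 0.62 to 0.82 after orientation, lowest for sets 3 and 4. Genes are not independent replicates.

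RCK was higher in apetala3 on every array. Its log2 ratio was 0.61 on set 1, 1.22 on set 2, 0.60 on set 3 and 0.44 on set 4. Set 2 stood above the other 3, and no set was at or below 0. The mean was 0.71 ± 0.15 (limma SE, n = 4 arrays), a 1.64-fold higher ratio with a 95% interval of 1.26 to 2.14. This passed the threshold of 0.05 over all features, with a limma adjusted p of 0.0314. At that threshold 18.5% of the 25588 features tested were called, 8.43% higher and 10.1% lower. Of the 5330 named genes, 9.12% were higher and 8.41% lower, so a call like that of RCK was common in this fit. The share of features called higher was smaller after centring on array medians, at 4.16%, and after centring on empty spots, at 0.637%. Of the named genes, 3.94% had a mean above that of RCK. Among those 210 genes, 135 passed the threshold and 75 did not.

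The call for RCK was not held by every choice of arrays. Without set 1, 2 or 3 the mean was 0.75, 0.55 or 0.75, and the limma adjusted p was 0.118, 0.0677 or 0.0750. Without set 4 it was 0.81, with a limma adjusted p of 0.0396. Of 15 alternatives, 6 kept RCK past the threshold. The mean stayed above 0 under all of them, but with every array above 0 only the centring alternatives could have turned its sign. When the fit also held a channel term, the same mean of 0.71 had a limma adjusted p of 0.0527. RCK averaged 0.60 where channel 1 held the mutant RNA and 0.83 where channel 2 did. The difference of -0.22 between these orientations had a 95% interval of -1.06 to 0.62 and did not pass the threshold (limma adjusted p = 0.896). Over all features, 0 passed limma's threshold for this difference and 1735 had an unadjusted p under 0.05.

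**Figure D1:**
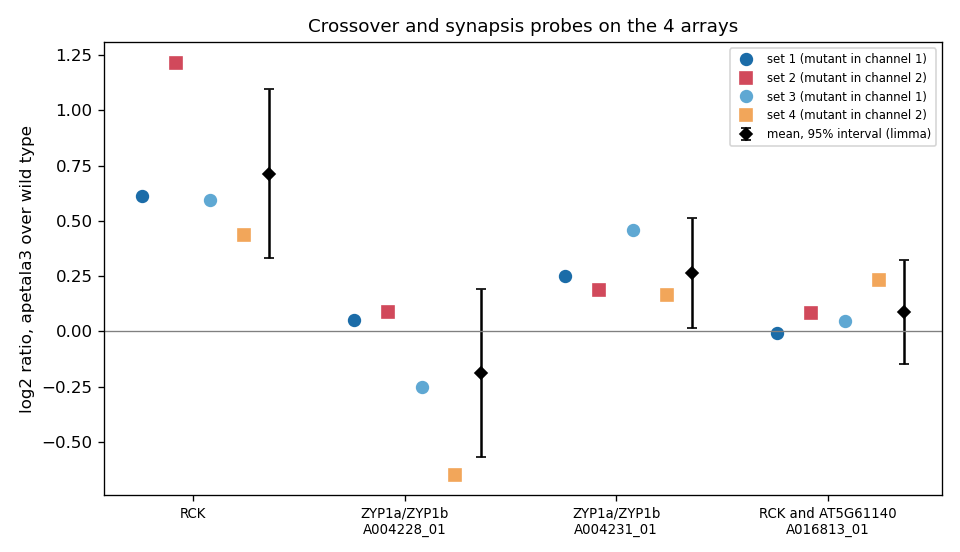
Log2 ratio of apetala3 over wild type (vertical axis) for the RCK probe, both ZYP1a/ZYP1b probes and the probe listing RCK with AT5G61140. Each coloured point is 1 array, circles with the mutant in channel 1 and squares with it in channel 2, and the black diamond with its bar is the mean with limma's 95% interval. RCK lies above 0 on all 4 arrays, while probe A004228_01 falls on both sides of 0.

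A further probe, A016813_01, lists RCK together with AT5G61140, so no gene is named from it. Its log2 ratios were -0.01, 0.08, 0.05 and 0.23 on sets 1 to 4, with a mean of 0.09 ± 0.09 (limma SE, n = 4 arrays). It was not past the threshold (limma adjusted p = 0.529). The RCK probe was above it on all 4 arrays, by 0.63 on average.

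The ZYP1 probes did not pass the threshold, and their means had opposite signs. Probe A004228_01 had log2 ratios of 0.05, 0.09, -0.25 and -0.65 on sets 1 to 4. It was near 0 on the first 2 sets and lowest on set 4, and its mean was -0.19 ± 0.15 (limma SE, n = 4 arrays, limma adjusted p = 0.404). The 95% interval of this mean ran from 0.674-fold to 1.14-fold.

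Probe A004231_01 had log2 ratios of 0.25, 0.19, 0.46 and 0.16 on the same sets. It was above 0 on all 4, with a mean of 0.27 ± 0.10 (limma SE, n = 4 arrays, limma adjusted p = 0.118). Its 95% interval ran from 1.01-fold to 1.43-fold. The RCK mean of 1.64-fold lies outside it, but RCK's own interval of 1.26-fold to 2.14-fold overlaps it. Values above 0 on all arrays were frequent, at 30.5% of the 24697 features measured on all 4 arrays, and the median of all features was itself 0.11.

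The 2 ZYP1 probes were set against each other because they list the same genes. A004228_01 was below A004231_01 on all 4 arrays, by 0.20, 0.10, 0.71 and 0.81. The mean difference was -0.46 ± 0.36 (SD, n = 4 arrays), larger than its SD, with a two-sided exact sign-flip p of 0.13, the smallest that 4 arrays can give. Differences of this size between probes for the same genes were not rare. Of 1193 pairs of probes listing the same pair of genes, 33.0% differed by at least as much, and their median difference was 0.28. The mean of both ZYP1 probes was 0.15, 0.14, 0.10 and -0.24 on sets 1 to 4, or 0.04 ± 0.19 (SD, n = 4 arrays).

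RCK was above the ZYP1 mean on all 4 arrays, by 0.46, 1.08, 0.49 and 0.68. The mean difference was 0.68 ± 0.28 (SD, n = 4 arrays), or 1.60-fold. The two-sided exact sign-flip p was again 0.13, also after adjustment over the 2 such comparisons, so this test cannot take the difference past 0.05 with 4 arrays. RCK was also above each ZYP1 probe singly on all 4 arrays. The smallest gap was 0.14, to A004231_01 on set 3, and the largest was 1.13, to A004228_01 on set 2.

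**Figure D2:**
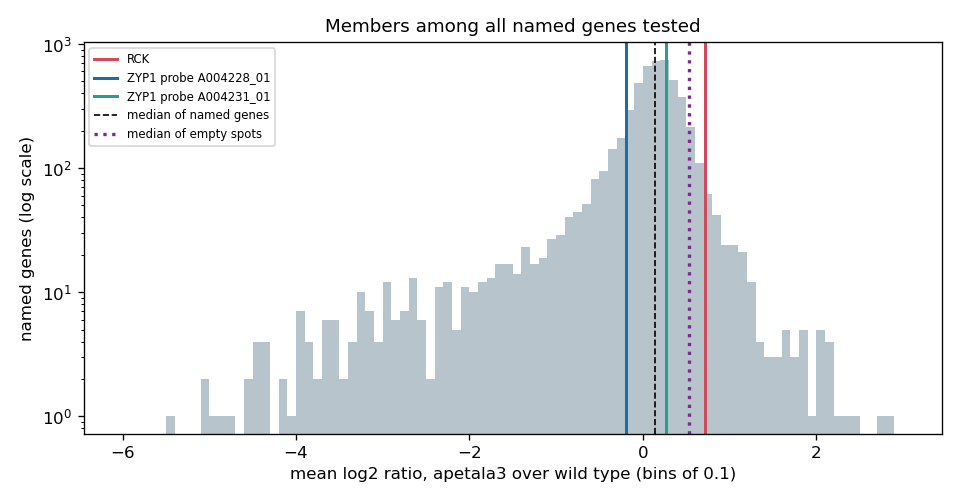
Number of named genes (vertical axis, log scale) by mean log2 ratio of apetala3 over wild type (horizontal axis, bins of 0.1), with lines at RCK, both ZYP1 probes, the median of named genes and the median of empty spots. RCK, at 0.71, lies to the right of the bulk and near the empty spots' median of 0.53, while the ZYP1 probes lie on either side of the named genes' median of 0.14.

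Empty spots, which carry no gene, were also shifted above 0, and these values stand beside RCK because the ratios hold no signal level. Of 179 empty spots measured on at least 3 arrays, the median was 0.53, and 33.5% had a mean at least as high as RCK, against 4.25% of features. On single arrays their medians were 0.76, 0.56, -0.27 and 0.84 on sets 1 to 4. RCK was below them on sets 1 and 4 and above them on sets 2 and 3. On set 3, where the empty spots' median was below 0, RCK had 0.60. With each array shifted to an empty-spot median of 0, RCK had a mean of 0.24 and lost its call (limma adjusted p = 0.662), and A004231_01 turned to -0.21. In this fit the limma SE was 0.33 for RCK and for both ZYP1 probes, against 0.15 for RCK before the shift. The shifts differed between arrays and so added spread to every feature, which enters that adjusted p beside the lower mean. Whether signal near background had a part in the RCK value was not tested.

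The wider meiotic pathway was taken as 68 genes in 7 lists, of which 7 had a probe naming them alone and 6 were measured. Among these 6, 2 were higher, 0 were lower and 4 did not pass the threshold, and 4 had an unadjusted limma p under 0.05. Of all named genes 9.12% were higher and 36.5% had an unadjusted p under 0.05. The 2 higher genes were RCK and AT4G24710. The median over the 6 was 0.45, against 0.14 over all named genes. The count is small and it is not stable, as it fell to 0 without set 1, 2 or 3 and rose to 3 without set 4. After centring on array medians it was 1. It was 0 after centring on empty spots, with a channel term in the fit, or with limit values kept. With array weights, or with only features measured on all 4 arrays, it was 3. In this bulk tissue a change in the number of cells of a type and a change in RNA per cell cannot be told apart.

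Of the genes that make or help to make meiotic breaks, SPO11-2 and DFO were measured. SPO11-2, a topoisomerase-like protein of the complex that cuts the DNA, had log2 ratios of 0.62, 0.91, 0.77 and 0.08 on sets 1 to 4. Its mean of 0.59 ± 0.16 (limma SE, n = 4 arrays) was not past the threshold (limma adjusted p = 0.0554). It was above 0 on every array and lowest on set 4, without which it passed (limma adjusted p = 0.0190). Its 2 probes had means of 0.44 and 0.74, and the first was below 0 on set 4, at -0.10. DFO, a protein needed for break formation, had a mean of -0.19 and was not past the threshold either.

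Strand invasion follows the breaks, and of that list only ATMND1 was measured by name. MND1 proteins assist the recombinases that pair the broken strand with the homologous chromosome. ATMND1 had values of 0.38, 0.36, 0.52 and 0.03 on sets 1 to 4, with a mean of 0.32 and a limma adjusted p of 0.105. It too was above 0 on every array and lowest on set 4.

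In the crossover list, RCK was measured together with AT1G12790, for which the reference table gives no symbol. AT1G12790 had values of -0.26, -0.45, 0.04 and 0.09 on sets 1 to 4 and a mean of -0.15 (limma adjusted p = 0.444). RCK was above it on every array. The paired genes EME1A and EME1B, whose products are partners of the MUS81 endonuclease in a second route to crossovers, shared 2 probes. Probe A007163_01 had a mean of 0.34 and A006658_01 of -0.47, the latter with -1.92 on set 3, and neither passed the threshold.

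For the axis and synapsis list, to which ZYP1a and ZYP1b belong, AT4G24710 was the gene measured by name. Its log2 ratios were 0.53, 0.88, 0.66 and 0.20 on sets 1 to 4. The mean was 0.57 ± 0.14 (limma SE, n = 4 arrays, limma adjusted p = 0.0420), a 1.48-fold higher ratio. It was above 0 on every array, highest on set 2 and lowest on set 4, the same order of extremes as RCK. This call was lost without set 1, 2 or 3, at 0.58, 0.46 or 0.54, and after centring on array medians, at 0.47. After centring on empty spots the mean was 0.09 (limma adjusted p = 0.870). With a channel term or with limit values kept the limma adjusted p was 0.0700 or 0.0617.

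Helicases that limit crossovers were measured only through shared probes. A probe listing RECQ4A and RECQ4B, which unwind recombination intermediates before they become crossovers, had a mean of 0.55 and was not past the threshold (limma adjusted p = 0.0658). No gene of this list was measured by name, nor of the lists for cohesin and for the meiotic cell cycle. A meiosis gene was listed together with genes outside the lists by 11 probes, among them A016813_01, given above. Of these 11 probes, 1 was higher, 0 were lower and 10 did not pass the threshold, with means from -0.19 to 0.67. Over all features 8.43% were higher and 10.1% lower.

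**Figure D3:**
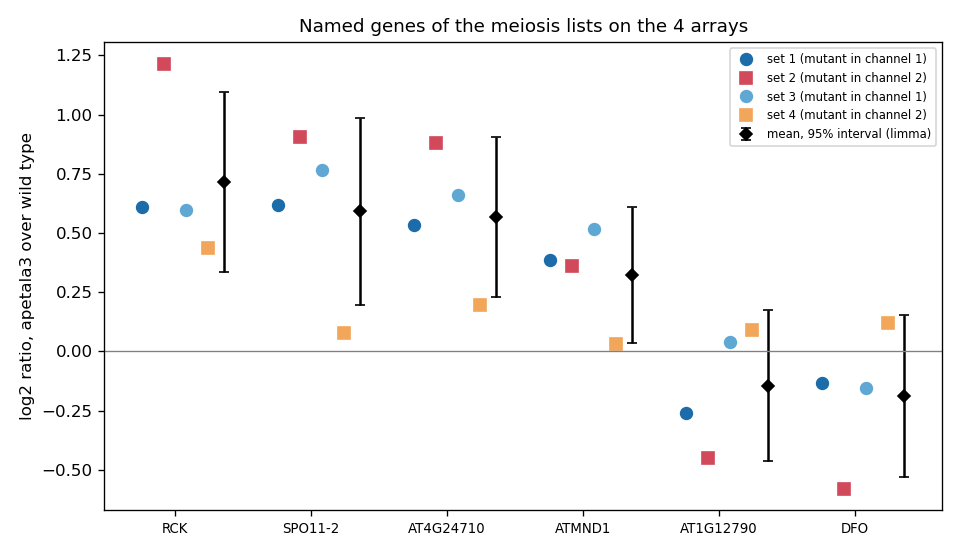
Log2 ratio of apetala3 over wild type (vertical axis) for the 6 measured named genes of the meiosis lists, ordered by mean. Coloured points are single arrays and the black diamond with its bar is the mean with limma's 95% interval. RCK, SPO11-2, AT4G24710 and ATMND1 lie above 0 on all 4 arrays and are lowest on set 4, whereas AT1G12790 and DFO have means below 0.

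Set 4 was the lowest array for 4 of the 6 named meiosis genes and set 2 was the highest for 3 of them. The same was frequent outside the lists. Over all features measured on all arrays, set 4 was the lowest for 30.9% and set 2 was the highest for 27.8%. Among those of them called higher, the shares were 45.5% and 41.6%.

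Gene families close to RCK or to meiosis were looked for by words in gene symbols and synonyms, which matched few measured genes. Such matching can miss family members, and RCK itself, a helicase, was not among the helicase matches. Counts of 0 among so few cannot be told apart from the 18.5% of all features called. Of 3 measured genes matched by the word helicase, 0 passed limma's threshold and 0 had an unadjusted p under 0.05. AT3G09720 was at 0.25 and PRH75, an RNA helicase, at 0.14. The DNA polymerase gene POLH, the 1 measured gene matched by the replication words, had a mean of 0.25 and did not pass. Of 3 measured genes matched by the histone words, 0 passed limma's threshold and 0 had an unadjusted p under 0.05. HIS4 was at 0.30 and HTR12, the centromeric histone H3, at 0.21. HIS1-3, a linker histone, had values of -0.96, -2.73, 1.44 and 1.92 on sets 1 to 4, so its mean of -0.08 lies between arrays of opposite sign. The words for DNA repair, for meiosis, for cohesin and condensin, for cyclins and for kinesins matched 0 genes measured by name. These zeros count name matches and do not show that no such gene was measured. SPO11-2, DFO and ATMND1, given above, were not matched by the meiosis words.

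Several genes of the organs in which meiosis takes place had ratios further from 0 than RCK, most of them below 0. ATA27, an anther beta-glucosidase, was at -4.10 ± 0.61, with its 2 probes apart at -6.08 and -0.65. SWEET8, a sugar transporter of the anther, was at -3.97 ± 0.36, and SHT, a tapetal acyltransferase, at -3.11 ± 0.46 (limma SE, n = 4 arrays each). EMS1, a receptor kinase of tapetum formation, had 0.07 and did not pass. SPL, a regulator of sporogenesis needed to begin forming both pollen and megaspore mother cells, was lower at -0.49 ± 0.11 (limma adjusted p = 0.0337), a call lost without set 1, 2 or 3. Of 2 carpel and ovule genes measured, CES, a transcription factor of the carpel's transmitting tract, was higher at 1.85 ± 0.14. INO, a regulator of the ovule's outer integument, had 0.20 and did not pass. The ranges of these lists were -4.10 to 0.07 for tapetum and sporogenesis and 0.20 to 1.85 for carpel and ovule, and the part of organ makeup in the RCK value was not tested.

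The named genes most like RCK were those at the smallest Euclidean distance over the 4 arrays, among 5170 measured on all of them. They were AT5G04000, AT1G31710, AT5G37570, AT2G42640 and AT3G58590, at distances of 0.195 to 0.221 and with means of 0.61 to 0.75. AT5G04000, the nearest, had 0.69, 1.09, 0.60 and 0.56 on sets 1 to 4 and also passed the threshold (limma adjusted p = 0.0158). AT1G31710 and AT3G58590 passed it too, at limma adjusted p values of 0.0463 and 0.0418, whereas AT5G37570 and AT2G42640 did not. Without set 1 none of the 5 passed limma's threshold, and AT5G04000 alone did so without set 2 or 3. All 5 had their highest value on set 2, which the choice by distance itself favours.

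For the mean of the ZYP1 probes the nearest were AT3G13226, AT4G20760, AT3G02960, AT1G67590 and AT1G29040, at distances of 0.0791 to 0.112. Their means ran from 0.01 to 0.09, and none passed limma's threshold. AT3G13226 had 0.11, 0.09, 0.10 and -0.20 on sets 1 to 4. The ZYP1 mean was also lowest on set 4, so the choice by distance itself favours a low value there.

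Along the chromosome, the nearest named genes measured on either side of RCK were AT3G27640 and AT3G27770. AT3G27640, 37.5 kb away at lower coordinates, was higher at 0.50 ± 0.10 (limma SE, n = 4 arrays, limma adjusted p = 0.0272), though not without set 1, 2 or 3. AT3G27770, 5.01 kb away on the other side, was at -0.30 and not past the threshold, and AT3G27600 and AT3G27870, further out, were at 0.02 and 0.13. Around the ZYP1 pair, AT1G22140, AT1G22120, AT1G22290 and UGT85A7 were at -0.03, 0.28, 0.10 and 0.48, and none passed limma's threshold. UGT85A7 reached its value through set 4 alone, at 3.27, with the other 3 arrays below 0.

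**Figure D4:**
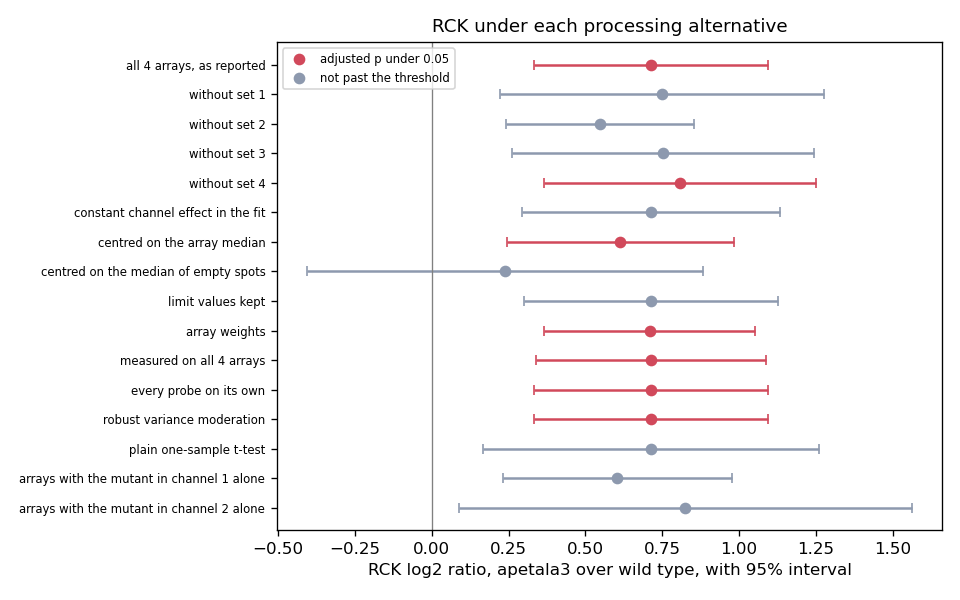
Mean log2 ratio of RCK with its 95% interval (horizontal axis) as reported and under each of 15 alternatives (rows). Red points passed the adjusted threshold of 0.05 and grey points did not. The means run from 0.24 to 0.83, and only the centring alternatives could have given a mean below 0.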

How the data were processed

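The authors deposited, for each array, the log2 ratio between its channels after their own normalization, per the labels, which point to an earlier publication. How they scanned, corrected, normalized and centred the arrays, and which channel was the numerator, is not given in the sources used here. A log2 scale was read from the values, which stop at 100-fold on either side. Values with an absolute size above 6.6438 were treated as not measured, 268 to 701 gene probes per array. Of 26474 gene probes, 5784 named 1 gene, 7497 several and 13193 none, and gene IDs paired 5756 of the first with the TAIR10.1 reference table. The 424 empty and 35 control spots were not tested.

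Sets 1 and 3 were multiplied by -1. Probes naming the same single gene were averaged on each array, and every other gene probe was a feature of its own. Features measured on at least 3 arrays, 25588 in all, were fitted with limma 3.58.1 in R 4.3.3 (lmFit with an intercept, then eBayes), with Benjamini-Hochberg adjustment over all of them and a threshold of 0.05. The procedure was tested on simulated data with independent noise around 0. These data held no shift of a whole array or channel, so the test does not cover such shifts. Differences between members used exact sign-flip tests over 4 arrays.

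Genes named were the members, every measured gene of the 7 meiosis lists, up to 3 genes past the threshold or else 2 of each other list, the 5 nearest to RCK and to the ZYP1 mean, and 2 neighbours on each side. EMS1, SPL, INO, HIS1-3 and the probe listing RCK with AT5G61140 were named after their values were seen. Keyword lists were matched in symbols and synonyms, because the reference table holds no descriptions, so they miss genes whose names lack the words. The members and lists were chosen with earlier results of these data known. Alternatives changed the arrays used, channel effect, centring, limit values, array weights, filter, feature definition, variance moderation and test.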

Additional observations from a re-analysis of the deposited data

Results flagged for a closer look

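Of 40 genes and probes examined, 1 had a single array set well apart from the rest, and chance alone flags about 2. It was AT3G13226, the gene nearest to the ZYP1 mean, with -0.20 on set 4. The ZYP1 mean was itself lowest on set 4, at -0.24, so the choice by distance favours such a value. The chance rate does not allow for that choice.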

How the results depend on the processing

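RCK stayed above 0 under all 15 alternatives, though with every array above 0 only the centring ones could have turned its sign. Probe A004228_01 was below 0 under all 15 and passed the threshold under 0. Probe A004231_01 also passed under 0 and was above 0 under 14, turning to -0.21 with empty spots centred on 0. Without 1 array in turn, RCK ranged from 0.55 to 0.81, and the call was kept only without set 4. Further losses came with a constant channel effect (0.71), with empty spots centred on 0 (0.24), with limit values kept (0.71), with a plain t-test (0.71), and on the arrays with the mutant in channel 1 (0.60) or channel 2 (0.83) alone. It was kept with median centring (0.61), array weights, features measured on all 4 arrays, every probe on its own and robust moderation. The count of named meiosis genes called, recomputed in ways chosen after seeing the data, ranged from 0 to 3 without 1 array. The count was 3 with array weights or features measured on all 4 arrays, 2 with robust moderation and 1 with median centring. It was 0 with a constant channel effect, empty spots centred on 0, limit values kept or the plain t-test. Either orientation alone or an adjusted p under 0.01 also gave 0. In these fits 1 to 4 of the 6 had an unadjusted p under 0.05. All features called numbered 4737, and 1665 to 4693 without 1 array. They numbered 1265 with the plain t-test, 2081 and 873 on the arrays of channel 1 and channel 2 alone, and 1645 at an adjusted p under 0.01. The split of 2158 higher and 2579 lower became 1065 and 2905 with median centring, 163 and 3706 with empty spots centred on 0, and 3751 and 3056 with array weights. The cause was not tested. Each value is a ratio within an array, so the genotypes are paired in every fit, and the set numbers mark single arrays and allow no further replicate block.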
